A study of Homo sapiens with 20 samples.

Results

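CTCF binding was profiled by ChIP-seq in LNCaP cells, a prostate cancer cell line, after RNA interference against CTCF, and the sites described here are those at which a CTCF peak was called in CTCF siRNA replicate 2 and not in CTCF siRNA replicate 1. Overlapping peaks of the control siRNA libraries on chromosomes 1 to 22 and X were merged, which gave 33377 sites that each control library had called. Of these control sites, 3790 (11.4%, Wilson 95% interval 11.0 to 11.7%, which covers counting error only) had an overlapping peak in replicate 2 alone. They were chosen by the peak lists of the 4 LNCaP CTCF libraries, so their LNCaP CTCF values are given as a description and without a test. The other control sites were 3091 that both CTCF siRNA libraries kept, 26239 with a peak in neither and 257 with a peak in replicate 1 alone.

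CTCF is a zinc finger protein that binds a long DNA motif through part of its finger array, anchors chromatin loops together with cohesin and insulates enhancers from promoters. Sites differ in how well they match the motif, and strong sites tend to be occupied in many cell types. The motif has a direction, and loop anchors are often bound in convergent orientation.

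LNCaP cells received 20 nM pooled CTCF siRNA or pooled non-targeting control siRNA, were transfected again after 72 h and were harvested at 144 h for ChIP of CTCF, of H3K4me3, a mark of active promoters, and of H3K27ac, found at active promoters and at active enhancers. IMR90 cells, a normal lung fibroblast line, received the same siRNAs and dose over the same time with another transfection reagent and were profiled for CTCF by a standard protocol and by another for low cell numbers, called low-cell here. Each of the 10 groups had 2 libraries. The study's methods describe ChIP-seq with the standard protocol as done in biological duplicate and the low-cell ChIP as done in duplicate, and the labels do not name the cultures. RNA interference lowers CTCF without removing it, and the lists hold peaks called per library above a threshold and no level of CTCF RNA or protein. Among CTCF siRNA libraries of LNCaP cells, replicate 1 was sequenced more shallowly than replicate 2, and on chromosomes 1 to 22 and X it had 3711 peaks against 7716. The part of depth in which sites carry a peak in replicate 2 alone was not tested. As a check of the cell type, H3K4me3 regions lay at a start site of 8 of 8 LNCaP marker genes in all 4 H3K4me3 libraries. Of 5 fibroblast marker genes, COL1A2, COL3A1 and FAP had such a region in none of these libraries, TWIST2 in 1 and TWIST1 in 4.

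The reference sequences of 12 of these sites are shown first because they cover the range of motif matches and of binding in the second cell line that the results turn on. Each line gives 60 bases of GRCh37 (hg19) on the strand that carries the motif, 5′ to 3′, with the CTCF core consensus match in capitals. The first 3 were among the strongest in control cells, the next 2 among the strongest in CTCF siRNA replicate 2, the following 4 had a core without mismatch and a peak in all 8 IMR90 libraries, and the last 3 had no peak in any IMR90 library.
ZNF385A intron, chr12:54773599-54773658, minus strand, 1 mismatch: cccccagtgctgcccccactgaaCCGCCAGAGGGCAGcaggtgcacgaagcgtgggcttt
TBC1D16 intron, chr17:77979756-77979815, plus strand, 1 mismatch: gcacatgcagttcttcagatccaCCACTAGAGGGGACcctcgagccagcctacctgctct
near NLRP12, chr19:54296330-54296389, plus strand, 0 mismatches: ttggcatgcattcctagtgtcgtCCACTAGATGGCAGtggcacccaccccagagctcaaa
near P3H4, chr17:39957982-39958041, minus strand, 0 mismatches: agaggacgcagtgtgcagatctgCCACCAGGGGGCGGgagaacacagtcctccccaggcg
near KATNAL1, chr13:30706837-30706896, plus strand, 0 mismatches: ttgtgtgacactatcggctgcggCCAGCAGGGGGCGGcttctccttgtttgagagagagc
TSNAXIP1 intron, chr16:67850569-67850628, plus strand, 0 mismatches: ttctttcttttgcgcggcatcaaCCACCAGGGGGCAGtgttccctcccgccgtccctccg
near WDR5, chr9:137036016-137036075, plus strand, 0 mismatches: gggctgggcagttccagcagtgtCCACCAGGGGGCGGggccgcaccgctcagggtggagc
near GLRX5, chr14:96027394-96027453, plus strand, 0 mismatches: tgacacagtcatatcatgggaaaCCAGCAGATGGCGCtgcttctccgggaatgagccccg
SHANK2 intron, chr11:70601776-70601835, minus strand, 0 mismatches: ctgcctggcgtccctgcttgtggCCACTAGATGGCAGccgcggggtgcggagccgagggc
near NCAM2, chr21:21816044-21816103, minus strand, 2 mismatches: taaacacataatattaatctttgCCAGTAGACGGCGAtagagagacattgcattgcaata
TTC34 intron, chr1:2703342-2703401, minus strand, 0 mismatches: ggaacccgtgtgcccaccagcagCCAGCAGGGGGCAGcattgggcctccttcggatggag
CLSTN2 intron, chr3:139770350-139770409, minus strand, 1 mismatch: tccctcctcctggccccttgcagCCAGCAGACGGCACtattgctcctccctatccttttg

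In control cells the sites kept in replicate 2 alone were nearly as strong as those kept in both replicates and stronger than those kept in neither. Strength is given as the authors' fold enrichment of a peak over its local background, which is not scaled between libraries. At the sites kept in replicate 2 alone, the median fold enrichment was 19.6 in control replicate 1 and 24.0 in control replicate 2. It was 22.4 and 26.1 at sites kept in both, and 9.68 and 11.7 at sites kept in neither. After CTCF siRNA, sites kept in neither have no value by the rule. The median in CTCF siRNA replicate 2 was 7.51 (25th to 75th percentile 6.17 to 9.77) at sites kept in replicate 2 alone. It was 13.7 (9.92 to 19.8) at sites kept in both. The replicate 2 value exceeded the mean of the control values at 61 of the 3790 sites (1.61%) and at 365 of the 3091 sites kept in both (11.8%). The rule fixed part of this pattern, because a peak had to be present in replicate 2 and absent from replicate 1.

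**Figure D1:**
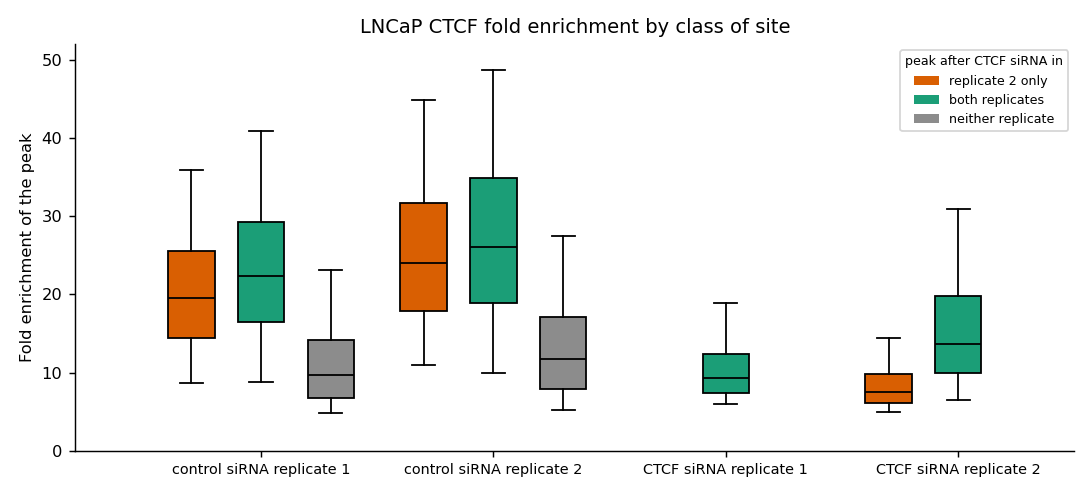
Fold enrichment of CTCF peaks in the 4 LNCaP CTCF libraries for control sites with a peak after CTCF siRNA in replicate 2 only, in both replicates or in neither; lines are medians, boxes the 25th to 75th percentiles and whiskers the 5th to 95th. Sites kept in replicate 2 only sit close to those kept in both in the control libraries (medians 19.6 and 22.4 in replicate 1) and below them in CTCF siRNA replicate 2 (7.51 and 13.7).

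The number of sites kept in replicate 2 alone rose with control strength. With the control sites ranked by mean control fold enrichment into 10 bins of equal size, they were 22 of 3338 sites (0.659%) in bin 1, the weakest, 192 of 3338 (5.75%) in bin 5 and 1168 of 3338 (35.0%) in bin 10. Sites kept in both rose from 46 to 89 and 1267 over the same bins. Even in bin 10, 879 sites (26.3%) were kept in neither library. CTCF siRNA replicate 2 held a peak at 20.6% of all control sites and replicate 1 at 10.0%.

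The position of these sites in the replicate 2 list was also graded. When the list was ranked by p-value into 10 bins, sites kept in replicate 2 alone made up 2.33% of bin 1, with the smallest p-values, 59.2% of bin 5 and 72.1% of bin 8. They made up 53.2% of bin 10, in which 39.9% of peaks lay at no control site. Of the 3790 sites, 1141 (30.1%) had a replicate 2 peak that ranked within the length of the replicate 1 list, against 2493 (80.7%) of the sites kept in both. Shortening the replicate 2 list by p-value to the length of the replicate 1 list therefore left 1141 sites in replicate 2 alone and gave 855 sites in replicate 1 alone. The count thus fell from 3790 to 1141 with the length of the list.

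**Figure D2:**
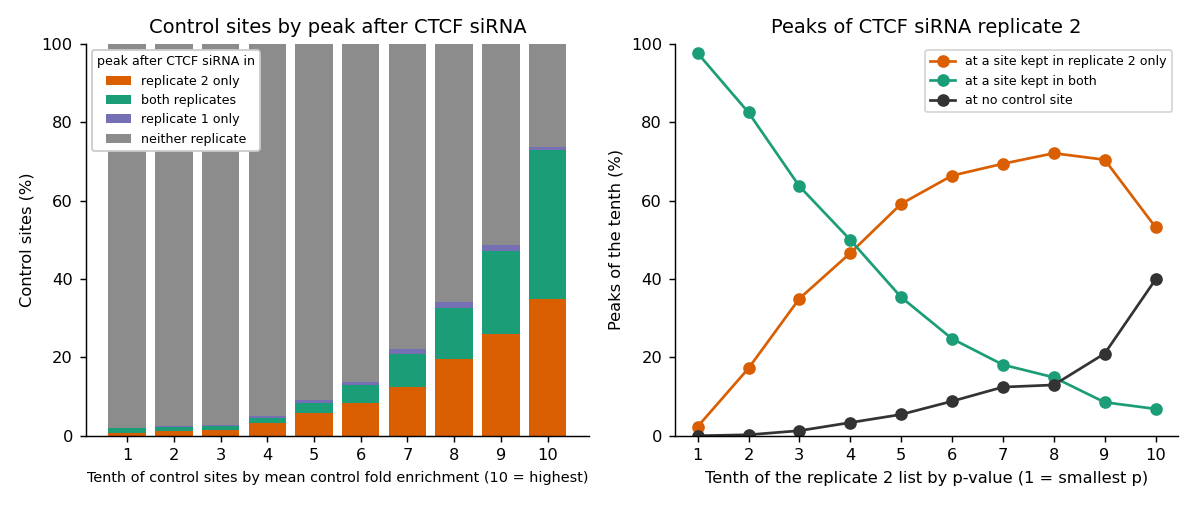
Left, share of control sites in each of 10 bins of mean control fold enrichment (10 = highest) that had a peak after CTCF siRNA in replicate 2 only, both, replicate 1 only or neither. Right, share of the CTCF siRNA replicate 2 peaks in each of 10 bins of the list, ranked by p-value, that lay at a site kept in replicate 2 only, at a site kept in both or at no control site. Sites kept in replicate 2 only rise from 0.659 to 35.0% over the bins of strength and peak at 72.1% in bin 8 of the list.

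Few sites lay close to the overlap limits of the rule. How close the sites lay to the calling threshold of replicate 1 cannot be read from a list of called peaks. The smallest overlap with a replicate 2 peak was 94 bp, in an intron of PKN2-AS1 (chr1:89121308-89121733, fold enrichment 6.74 and 10.5 in control cells and 5.72 in CTCF siRNA replicate 2). The closest replicate 2 peak that was not counted lay 39 bp from a control site in an intron of IGFBP7-AS1 (chr4:58029649-58030097). In replicate 1, the nearest peak to a site kept in replicate 2 alone was 177 bp away, in an intron of KCNA2 (chr1:111162489-111162720), and 36 sites had a replicate 1 peak within 1000 bp. The largest q-value of a replicate 2 peak was 0.0175, in an intron of FAM181A-AS1 (chr14:94373082-94373533) against the authors' FDR of 0.05.

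The 6 strongest sites in control cells were picked for their control values. Part of the fall to CTCF siRNA replicate 2 is therefore fixed by the choice. Of these sites, the first lay in an intron of ZNF385A, which encodes a zinc finger protein. It had a fold enrichment of 52.9 and 81.2 in the control libraries and 5.95 in CTCF siRNA replicate 2. In an intron of TBC1D16, a GTPase-activating protein of Rab proteins, the values were 56.7, 72.9 and 9.16. In CELSR2, an atypical cadherin of planar cell polarity, they were 53.3, 61.4 and 9.44 (chr1:109806114-109806748), with the summit in an intron and a core of 1 mismatch in a coding exon. All of these values were far lower in the CTCF siRNA library than in the control libraries, between which no scaling was applied. At 621 bp from NLRP12, which encodes a regulator of inflammatory signalling, they were 49.2, 65.2 and 16.5 (chr19:54295962-54296832). In DUOXA1, a maturation factor of a dual oxidase, they were 55.9, 58.1 and 6.24 (chr15:45410270-45410927), and 10621 bp from the repressor gene ZBTB32 they were 49.2, 63.9 and 11.6 (chr19:36184456-36185206). None of these 6 sites had a peak in low-cell CTCF siRNA replicate 2 of IMR90 cells, and TBC1D16 alone had 1 in low-cell replicate 1, whereas all 6 had peaks in the 4 standard IMR90 libraries.

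The 6 sites with the highest values in CTCF siRNA replicate 2 were picked for that value, so its closeness to the control values is fixed by the choice. At 174 bp from P3H4, a member of the prolyl 3-hydroxylase family, fold enrichment was 44.3 and 51.3 in the control libraries and 25.0 in CTCF siRNA replicate 2 (chr17:39957743-39958632). At 69902 bp from KATNAL1, a subunit of the microtubule-severing enzyme katanin, it was 25.1 in control replicate 1, 26.1 as the mean of both control libraries and 24.4 in CTCF siRNA replicate 2 (chr13:30706653-30707075). Near CDC42BPG, a kinase of the CDC42 pathway, it was 31.6, 37.3 and 24.3 (chr11:64614499-64614977). In an intron of the calcium-binding protein gene CABP1 fold enrichment was 24.6, 39.2 and 24.0 (chr12:121084696-121085107), and in an intron of DAGLA, which encodes a diacylglycerol lipase, it was 41.9, 48.4 and 22.6 (chr11:61500900-61501338). The highest value of all stood apart from these. In an intron of THNSL2, a threonine synthase-like gene, it was 8.86 and 20.7 in control cells and 34.2 in CTCF siRNA replicate 2 (chr2:88480484-88481193), with no core within 100 bp of the summit, the nearest replicate 1 peak 20759 bp away and an H3K27ac region in all 4 libraries.

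Sequence was not used to choose the sites. The CTCF core consensus of 14 positions was searched on both strands within 100 bp of the stronger control summit, with up to 2 mismatches, and was found at 3348 of the 3790 sites (88.3%, 87.3 to 89.3%), against 74.0% of all control sites. It was found at 88.4% of sites kept in both (87.2 to 89.5%) and at 70.1% of sites kept in neither (69.6 to 70.7%). Windows of the same length 1000 bp away held it at 6.09% of the sites kept in replicate 2 alone. A core without mismatch was present at 918 sites (24.2%, 22.9 to 25.6%), against 26.6% of the sites kept in both (25.0 to 28.1%) and 8.21% of those kept in neither (7.88 to 8.54%). With 1 mismatch or fewer the shares were 63.7% (62.1 to 65.2%), 67.7% (66.1 to 69.4%) and 37.8% (37.2 to 38.4%). The intervals of sites kept in replicate 2 alone and in both thus overlapped with up to 2 mismatches and with 0 mismatches, and did not overlap with 1 mismatch or fewer, where the share was lower at sites kept in replicate 2 alone.

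Cores lay close to the summits and in both directions, as they did over all control sites. The median distance from core centre to summit was 15.5 bp, and 2230 of 3348 cores (66.6%) lay within 20 bp. For the cores of all control sites these were 15.5 bp and 62.9%. Among matches with equally few mismatches, the search took the one nearest the summit. The plus strand carried 1686 cores (50.4%, 48.7 to 52.1%), against 50.5% of the cores of all control sites. Position by position, the match was highest at position 8 of the core (99.6%) and lowest at position 3 (83.8%). At position 12 it was 84.5%, between 88.4% at sites kept in both and 76.2% at sites kept in neither. The search allowed up to 2 mismatches, which fixed part of these values. Position 8 accepted A or G and position 3 only A.

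The share with a core depended on control strength in a different way in the 3 kinds of site, shown here over 5 bins of equal size. In bin 1, the weakest, 31 of 60 sites kept in replicate 2 alone held a core (51.7%, 39.3 to 63.8%), against 6 of 82 kept in both (7.32%, 3.40 to 15.1%). In bin 2 the shares were 89.6% (83.8 to 93.5%) and 56.0% (45.3 to 66.1%), and in bin 5 they were 87.2% (85.7 to 88.6%) and 92.1% (90.9 to 93.2%). The order of the 2 kinds of site was therefore opposite at weak and at strong sites, with few sites among the weak. Sites kept in neither held a core at 55.6% (54.4 to 56.8%) in bin 1, 67.3% in bin 2 and 82.5% in bin 5. The 3 weakest sites kept in replicate 2 alone had a mean control fold enrichment of 2.66, 2.70 and 3.08. These sites held no core and had H3K4me3 and H3K27ac regions in all 8 histone libraries. They lay 307554, 1294736 and 115073 bp from the nearest protein-coding start site.

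The median GC content within 100 bp of the summit was 52.2% at sites kept in replicate 2 alone, 51.7% at sites kept in both and 46.8% at sites kept in neither. The median number of CpG dinucleotides was 4, 5 and 2. The 442 sites without a core were no weaker in control cells than those with a core, with median mean fold enrichments of 22.8 and 21.7. More of the sites without a core overlapped H3K4me3, with 20.1 and 25.6% in the control libraries against 13.3 and 17.5%. No such split is given for the other control sites, so this may not be particular to these sites.

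The IMR90 libraries were not used to choose the sites and ask whether they are bound, and kept, in a second cell line. Of the 3790 sites, 3647 (96.2%) had a peak in standard control replicate 1 and 3656 (96.5%) in replicate 2, against 76.2 and 77.4% of all LNCaP control sites. After CTCF siRNA, 3493 (92.2%) and 3462 (91.3%) had a peak, against 52.3 and 50.4% of all control sites. With the standard protocol, nearly all of the sites were thus bound in IMR90 cells and most remained so. Over the control libraries the mean was 96.3% ± 0.168 (SD, n = 2), and over the CTCF siRNA libraries it was 91.8% ± 0.578 (SD, n = 2), a difference of -4.59 percentage points that was larger than either SD. The 2-sided exact permutation test over libraries gave p = 0.33, the smallest that 2 libraries against 2 allow (Benjamini-Hochberg adjusted over the 4 tests made here, p = 0.44). For the 1141 sites left by the shortened replicate 2 list, the difference was -2.02 percentage points.

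With the low-cell protocol the sites were bound in control cells and mostly without a peak after CTCF siRNA. In control replicates 1 and 2, 3395 (89.6%) and 3294 (86.9%) of the 3790 sites had a peak, against 52.6 and 50.5% of all control sites. In CTCF siRNA replicates 1 and 2 these were 1311 (34.6%) and 365 (9.63%), against 13.6 and 5.30% of all control sites. The CTCF siRNA replicates thus differed from each other by a large margin, and so did their lists, with 5086 and 1941 peaks on chromosomes 1 to 22 and X. Over the control libraries the mean was 88.2% ± 1.88 (SD, n = 2), and over the CTCF siRNA libraries it was 22.1% ± 17.6 (SD, n = 2), a difference of -66.1 percentage points and larger than either SD (2-sided exact permutation test, p = 0.33, adjusted p = 0.44).

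**Figure D3:**
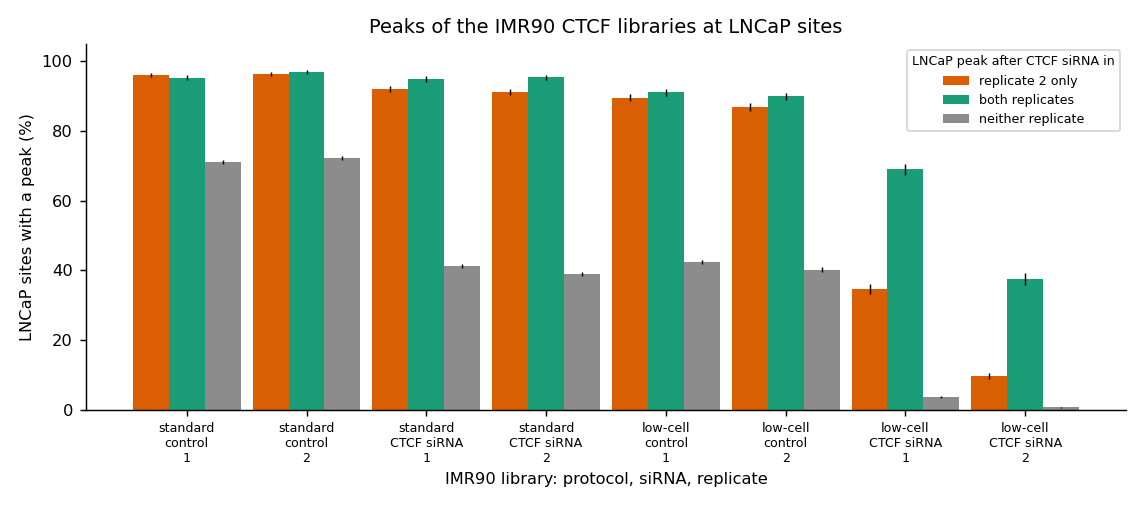
Share of LNCaP control sites with an overlapping peak in each of the 8 IMR90 CTCF libraries, for sites with a LNCaP peak after CTCF siRNA in replicate 2 only, both replicates or neither; error bars are 95% Wilson intervals, which cover counting error only. Sites kept in replicate 2 only are close to those kept in both in control libraries and lie between the other classes in the low-cell CTCF siRNA libraries (34.6 and 9.63%).

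In each of the 4 IMR90 CTCF siRNA libraries, the share of sites with a peak was lower at sites kept in replicate 2 alone than at sites kept in both, and higher than at sites kept in neither. In standard CTCF siRNA replicates 1 and 2, 41.2 and 39.0% of the sites kept in neither had a peak. At the sites kept in both, the share was 95.4% in replicate 2, with an interval of 94.6 to 96.1%, and its interval in replicate 1 was 94.2 to 95.7%. In the low-cell CTCF siRNA replicates these shares were 69.0 and 37.5% at sites kept in both and 3.58 and 0.667% at sites kept in neither. The intervals of the 3 kinds of site did not overlap in any of these 4 libraries. Of the 257 sites kept in replicate 1 alone, 80.5 and 77.0% had a peak in the standard CTCF siRNA replicates. This was a lower share than at sites kept in replicate 2 alone. In the low-cell CTCF siRNA replicates their share was higher, at 58.8 and 26.5%. With the replicate 2 list shortened, the low-cell shares of 855 sites in replicate 1 alone were 57.5 and 26.7%. Those of the 1141 sites in replicate 2 alone were 48.2 and 15.1%. In the low-cell control replicates the sites kept in both had shares of 91.2 and 90.0%, and those kept in neither 42.4 and 40.2%. A peak in all 4 IMR90 CTCF siRNA libraries was found at 349 of the 3790 sites (9.21%, 8.33 to 10.2%), at 1143 sites kept in both (37.0%, 35.3 to 38.7%) and at 145 sites kept in neither (0.553%).

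The low-cell shares were lower at sites kept in replicate 2 alone than at sites kept in both in bins 3, 4 and 5 of control strength, with intervals that did not overlap, whereas the intervals overlapped in bins 1 and 2. In bin 5, with mean control fold enrichments of 21.0 to 67.1, low-cell CTCF siRNA replicate 1 had a peak at 631 of 2035 sites kept in replicate 2 alone (31.0%, 29.0 to 33.1%) and at 1416 of 1971 kept in both (71.8%, 69.8 to 73.8%). Low-cell replicate 2 had a peak at 8.45% (7.32 to 9.74%) and 40.0% (37.9 to 42.2%) of them. In bin 2 the shares in replicate 1 were 51.3% (43.5 to 59.1%) of 154 sites and 50.0% (39.5 to 60.5%) of 84 sites. In bin 1 they were 25.0% (15.8 to 37.2%) and 11.0% (5.88 to 19.6%). These intervals cover counting error over sites and not the spread between libraries. Among the sites kept in replicate 2 alone, the share in low-cell replicate 1 was thus highest in bin 2 and not among the strongest.

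Within the sites kept in replicate 2 alone, the IMR90 shares rose with the fold enrichment in LNCaP CTCF siRNA replicate 2. In low-cell CTCF siRNA replicate 1 they were 24.8% (22.1 to 27.6%) in the lowest of 4 bins of equal size, 29.6 and 34.6% in the next bins and 49.4% (46.2 to 52.5%) in the highest. In low-cell replicate 2 they were 5.91, 6.86, 10.5 and 15.3%. The median control fold enrichment also rose over these bins, from 18.5 to 26.4.

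**Figure D4:**
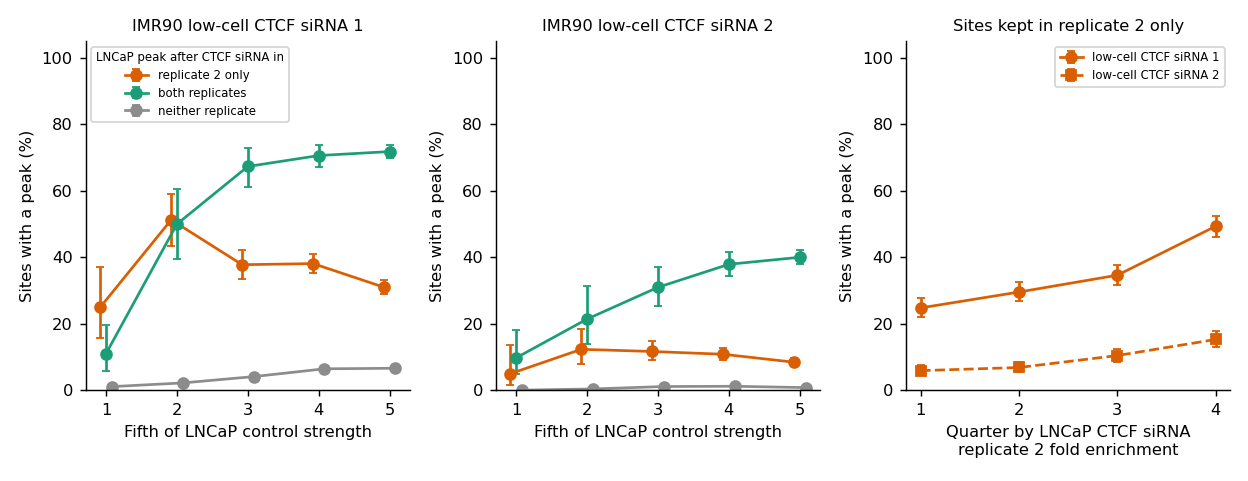
Left and middle, share of LNCaP sites with a peak in IMR90 low-cell CTCF siRNA replicates 1 and 2 by bin of mean LNCaP control fold enrichment (5 bins, 5 = strongest), by class of site; right, the same share for sites kept in replicate 2 only by bin (of 4) of their fold enrichment in LNCaP CTCF siRNA replicate 2. Error bars are 95% Wilson intervals. In bin 5 the sites kept in replicate 2 only are at 31.0 and 8.45% and those kept in both at 71.8 and 40.0%.

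Among sites that had a peak in both low-cell control libraries, 3218 of the 3790, low-cell CTCF siRNA replicate 1 alone kept 922 (28.7%), replicate 2 alone kept 11 (0.342%), both kept 353 (11.0%) and neither kept 1932 (60.0%). Over all control sites with both low-cell control peaks these shares were 17.5, 0.182, 11.2 and 71.1%, and over the sites kept in both they were 34.7, 0.254, 41.5 and 23.6%. The longer low-cell CTCF siRNA list was that of replicate 1. With the standard protocol, in which both CTCF siRNA lists were of similar length, 3373 of 3619 sites (93.2%) were kept in both libraries, 93 (2.57%) in replicate 1 alone and 60 (1.66%) in replicate 2 alone, against 62.2, 8.60 and 6.18% of all control sites with both standard control peaks.

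The 354 sites with a peak in both low-cell CTCF siRNA libraries differed in sequence from the 2468 with a peak in neither. A core was found at 337 (95.2%) and 2129 (86.3%) of them, and a core without mismatch at 118 (33.3%) and 506 (20.5%). The median GC content was 55.2 and 52.2%. Control fold enrichment in LNCaP cells was not higher at the sites with a peak in both, with medians of 18.8 and 20.7 in control replicates 1 and 2 against 20.0 and 25.0. The sites that held a peak in all 8 IMR90 libraries numbered 347 (9.16%).

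Of the strongest sites with a full core and a peak in all 8 IMR90 libraries, the first is shown by its values in both cell lines. In an intron of TSNAXIP1, which encodes an interactor of translin-associated factor X, LNCaP fold enrichment was 47.8 and 54.0 in control cells and 18.9 in CTCF siRNA replicate 2 (chr16:67850353-67850932). In IMR90 cells it was 37.0, 44.7, 55.0 and 55.8 in the standard control and CTCF siRNA replicates. With the low-cell protocol it was 13.0, 17.5, 15.2 and 5.79, so the value after CTCF siRNA lay below both control values in low-cell replicate 2 alone. The site 10927 bp from WDR5, a subunit of H3K4 methyltransferase complexes, had LNCaP values of 39.6, 45.4 and 18.3 (chr9:137035747-137036239), and that 16409 bp from GLRX5, which acts in iron-sulfur cluster assembly, had 35.1, 45.7 and 20.9 (chr14:96027213-96027776). In an intron of SHANK2, a postsynaptic scaffold gene, they were 39.0, 40.9 and 11.0 (chr11:70601562-70602046).

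A small group of 83 sites (2.19%, 1.77 to 2.71%) had no peak in any IMR90 library, against 17.9% of all control sites. Of these, 63 (75.9%) held a core, 44 (53.0%) were intergenic and 2 (2.41%) lay within 1000 bp of a start site. Their median LNCaP fold enrichment was 15.6 and 19.5 in control cells and 6.72 in CTCF siRNA replicate 2. The strongest was 554663 bp from NCAM2, a neural cell adhesion gene, with 34.2 and 41.8 in control cells and 5.45 in CTCF siRNA replicate 2 (chr21:21815803-21816252). Others lay in introns of LINC02646 (38.1, 36.9 and 10.4, chr10:132139531-132140182, no core), TTC34 (31.2, 39.4 and 6.81, chr1:2703015-2703905) and CLSTN2, a synaptic cadherin-like gene (31.5, 36.4 and 5.50, chr3:139770202-139770575). Strong LNCaP sites without IMR90 binding therefore included cores with 0, 1 and 2 mismatches.

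H3K4me3 and H3K27ac in LNCaP cells were not used to choose the sites either, and their shares lay close to those of all control sites. H3K4me3 regions overlapped 534 (14.1%) and 699 (18.4%) of the 3790 sites in the control libraries and 549 (14.5%) and 784 (20.7%) after CTCF siRNA, against 13.4 and 16.9%, and 14.2 and 19.2%, of all control sites. The treatments overlapped and the replicates differed more than the treatments did. Over the control libraries the mean was 16.3% ± 3.08 (SD, n = 2), and over the CTCF siRNA libraries it was 17.6% ± 4.38 (SD, n = 2), a difference of 1.32 percentage points that was smaller than either SD (2-sided exact permutation test, p = 0.67, adjusted p = 0.67). With all H3K4me3 lists shortened to the length of the shortest, the difference was 0.145 percentage points (p = 1.0 in the same exact test). The direction changed when control replicate 1 (-0.858 percentage points) or CTCF siRNA replicate 2 (-1.78) was left out.

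H3K27ac regions overlapped 734 (19.4%) and 661 (17.4%) of the sites in the control libraries and 760 (20.1%) and 902 (23.8%) after CTCF siRNA, against 20.6 and 17.4%, and 19.7 and 22.7%, of all control sites. Both shares after CTCF siRNA were above both control shares, by 0.686 percentage points at the least. Over the control libraries the mean was 18.4% ± 1.36 (SD, n = 2), and over the CTCF siRNA libraries it was 21.9% ± 2.65 (SD, n = 2), a difference of 3.52 percentage points and larger than either SD (2-sided exact permutation test, p = 0.33, adjusted p = 0.44). With all H3K27ac lists shortened to the length of the shortest, the difference was 1.23 percentage points (p = 0.67 in the same exact test). The CTCF siRNA lists of H3K27ac were the longer ones, with 94415 and 98973 regions against 86949 and 69949.

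Most of the sites carried the same state of a mark in every library, with shares near those of all control sites. H3K4me3 was present in all 4 libraries at 415 sites (10.9%) and in none at 2852 (75.3%), against 11.3 and 78.0% of all control sites. H3K27ac was present in all 4 at 475 (12.5%) and in none at 2647 (69.8%), against 13.6 and 71.8%. H3K4me3 exclusive to the control libraries, in both of them, was found at 36 sites (0.950%), against 0.500% of all control sites, and the opposite pattern at 47 (1.24%), against 0.950%. For H3K27ac these were 43 sites (1.13%) against 1.03% of all control sites, and 122 (3.22%) against 2.07%. Sites at which a mark was exclusive to 1 treatment were thus few, and the counts are a description. At sites kept in both, H3K4me3 was exclusive to control at 9 (0.291%) and to CTCF siRNA at 87 (2.81%).

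**Figure D5:**
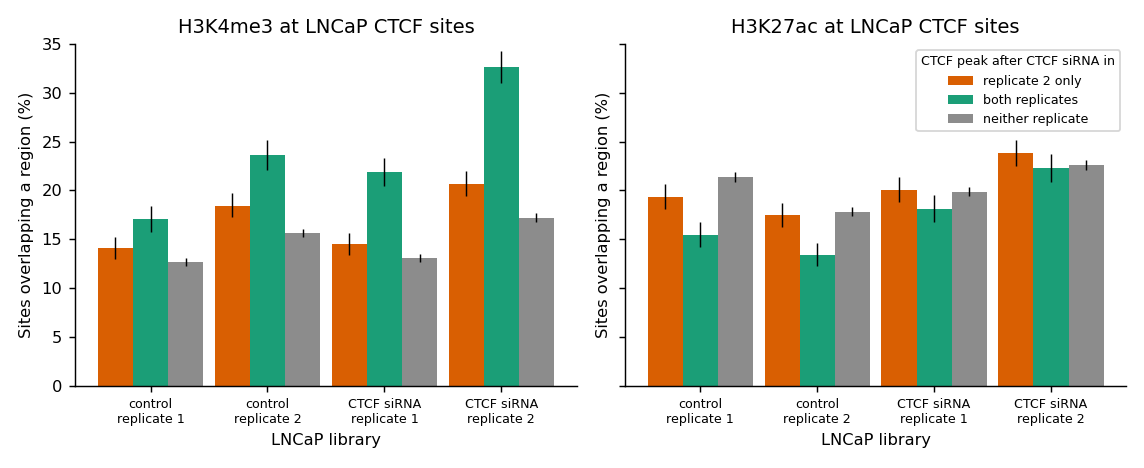
Share of LNCaP CTCF control sites that overlapped an H3K4me3 or H3K27ac region in each LNCaP library, by class of site; error bars are 95% Wilson intervals, which cover counting error only. For H3K4me3 at sites kept in replicate 2 only, the control replicates (14.1 and 18.4%) and CTCF siRNA replicates (14.5 and 20.7%) overlap, and for H3K27ac both CTCF siRNA replicates (20.1 and 23.8%) lie above the controls (19.4 and 17.4%).

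Both marks were more frequent at start sites than elsewhere, as they were among all control sites. A protein-coding start site lay within 1000 bp of 391 sites (10.3%), against 11.1% of all control sites. H3K4me3 overlapped 43.5 and 47.3% of these 391 sites in the control libraries and 42.5 and 48.6% after CTCF siRNA. At the 3399 sites farther away it overlapped 10.7 and 15.1%, and 11.3 and 17.5%. Among all control sites H3K4me3 overlapped 52.8 and 55.4% at start sites and 8.48 and 12.1% farther away in the control libraries. In control replicate 1, 364 of the 534 sites with H3K4me3 lay farther away, against 2518 of 4471 among all control sites. H3K27ac overlapped 44.2 and 43.2% of the sites at start sites in the control libraries and 44.2 and 48.8% after CTCF siRNA, against 16.5 and 14.5%, and 17.3 and 20.9%, of those farther away. Among all control sites it overlapped 51.1 and 48.3% at start sites in the control libraries and 49.6 and 53.7% after CTCF siRNA. Farther away these shares of all control sites were 16.8 and 13.5%, and 16.0 and 18.8%. The strongest sites with H3K4me3 in control cells only lay 1425 bp from GOLGA6B (chr15:72962900-72963671), 26687 bp from the ribosomal protein gene RPL38 (chr17:72172803-72173277) and in a non-coding exon of ADAM15, a metalloprotease gene (chr1:155033759-155034559). Those with H3K4me3 after CTCF siRNA only were in introns of AHNAK (chr11:62310101-62310992) and TTC7A (chr2:47214112-47214760) and in a UTR of S1PR1, a sphingosine phosphate receptor gene (chr1:101704245-101704916). H3K27ac exclusive to control cells was found at the strong ZNF385A and DAGLA sites named above. H3K27ac exclusive to CTCF siRNA was found in introns of the collagen gene COL5A1 (chr9:137581291-137581806) and of WDTC1 (chr1:27627131-27627694).

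By the position of their summits, 1887 sites (49.8%) were in introns, 1521 (40.1%) intergenic, 200 (5.28%) in non-coding exons, 125 (3.30%) in UTRs and 57 (1.50%) in coding exons. The shares of all control sites were near these, at 52.9, 37.5, 4.14, 3.45 and 2.01% in the same order. The intergenic share lay between those of sites kept in both (50.5%) and sites kept in neither (35.4%). The nearest protein-coding start site was at a median distance of 13361 bp, against 20197 bp at sites kept in both and 16999 bp at sites kept in neither. The nearest other control site was at a median of 15932 bp, against 20400 bp over all control sites. It was itself kept in replicate 2 alone at 508 sites (13.4%), kept in both at 434 (11.5%) and in neither at 2810 (74.1%). Over all control sites, the nearest site was kept in replicate 2 alone at 11.5%.

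The gene lists gave few of these sites, each within 10000 bp of a listed gene. Of the 33377 control sites 11.4% were kept in replicate 2 alone, and the share near listed genes was 2 of 35 sites for androgen-induced and luminal prostate genes, 2 of 35 for CTCF and cohesin genes, 2 of 26 for prostate cancer genes, 7 of 54 for imprinted genes, 5 of 45 for clustered protocadherins, 4 of 23 for the HOX clusters, 1 of 3 for beta-globin genes and 0 of 2 for the silenced kallikreins. The Wilson interval of every list included 11.4%. Among androgen-induced genes, the site in an intron of PMEPA1, an inhibitor of TGF-beta signalling, had a fold enrichment of 32.4 and 39.4 in control cells and 6.81 in CTCF siRNA replicate 2 (chr20:56229231-56229884). That in an intron of HERC3 had 20.4, 29.2 and 6.45 (chr4:89460595-89460990).

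In the HOX clusters, whose CTCF sites separate active from silent chromatin in many cell types, sites kept in replicate 2 alone lay near HOXC5 (30.0 and 35.6 in control cells and 11.3 in CTCF siRNA replicate 2), in HOXB3 (24.0, 18.5 and 8.18), near HOXD13 (21.3, 19.3 and 7.93) and in a coding exon of HOXD10 (12.4, 16.6 and 7.94). H3K4me3 was present in all 4 libraries at the first 3. The HOXD10 site had no core and no peak in any IMR90 library. In the protocadherin clusters, where promoter CTCF sites take part in promoter choice, the site in a coding exon of PCDHA4 held a full core with values of 12.3, 17.6 and 9.65. That near PCDHB1 held a full core with 14.6, 15.6 and 4.84 and no IMR90 peak.

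Imprinted genes with such a site included MEG3 (33.2, 37.6 and 8.43) and GRB10 (21.1, 32.8 and 9.12), both with a full core. In IMR90 cells the MEG3 site had a peak in the standard control libraries (14.2 and 12.7), in both low-cell control libraries and in standard CTCF siRNA replicate 1 (5.06), and in no other CTCF siRNA library. The GRB10 site had a peak in all 4 standard libraries. Among genes of CTCF partners, a site 8267 bp from the cohesin loader gene MAU2 had 35.9, 38.7 and 8.55, and a site in an intron of ZNF143, a factor often found beside CTCF, had 17.0, 27.1 and 9.08. For the prostate cancer genes, an intron of the cell cycle inhibitor gene CDKN1B had 29.4, 37.0 and 3.96 with no core. Within the annotated spans of the erythroid genes HBE1 and HBG2, a site 12282 bp from the start of OR52D1 had 23.0, 26.5 and 4.46.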

How the data were processed

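CTCF, H3K4me3 and H3K27ac ChIP-seq peak lists of 20 libraries (10 groups of 2) were used, grouped by the GEO labels. The submitters' processing notes name Bowtie, BWA, cutadapt, FastQC, MACS2 and hg19, and the study's methods name PeakRanger for the histone regions. The authors called peaks per library. For CTCF peaks they deposited fold enrichment, a ratio over local background, with −log10 p-values and −log10 q-values. The deposited histone lists give a score whose meaning is not given in the sources used here, and it served only to shorten lists. Read depth per library is not in the peak lists, but the study's reporting summary gives it. There, the LNCaP CTCF siRNA library of CTCF replicate 1 had fewer reads than that of replicate 2 in each sequencing run. The number of libraries per group limits the precision.

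Peaks on chromosomes 1 to 22 and X were joined by an overlap of at least 1 bp. A site's value is that of its strongest overlapping peak. The CTCF core consensus was searched in GRCh37 within 100 bp of the stronger control summit, with up to 2 mismatches. Genes are from GENCODE release 44 on GRCh37. Shares have 95% Wilson intervals, and treatments were compared by 2-sided exact permutation tests over libraries, Benjamini-Hochberg adjusted over 4 tests. Named sites were the 6 strongest in control cells, the 6 highest in CTCF siRNA replicate 2, the 4 strongest with a full core and a peak in all 8 IMR90 libraries, the 4 strongest with none, the 3 strongest for each mark exclusive to a treatment, the 3 weakest, up to 4 per gene list and those at the limits of the rule. Sites on chromosome 8 are not described. Alternatives were another overlap, a summit distance, stricter q-values, shortened lists, other mismatch and distance limits, all contigs, either control library, leaving out each library and a replicate block. The sites and lists were chosen with earlier results of these data known. Scripts used Python 3.11.15, numpy 2.4.6, pandas 2.3.3, scipy 1.17.1, pyfaidx 0.9.0.4 and matplotlib 3.10.9 and were tested on simulated data.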

Additional observations from a re-analysis of the deposited data

How the results depend on the processing

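The number of sites kept in replicate 2 alone was 1141 with the replicate 2 list shortened to the length of the replicate 1 list. It was 3937 and 3802 without control replicates 1 and 2, and 3705 to 3943 under the other alternatives. The share with a CTCF core was 63.7% with 1 mismatch, 24.2% with 0 mismatches, 86.1% within 50 bp of the summit and 85.3% for sites with a peak in either control library, and 85.3 to 88.2% when a control library was left out. Fewer mismatches or a shorter window find fewer cores by construction. When a library was left out, the IMR90 difference ranged from -5.00 to -4.18 percentage points (standard) and from -78.6 to -53.7 (low-cell), that of H3K27ac from 1.65 to 5.40, and that of H3K4me3 from -1.78 to 4.42. For the 1141 sites of the shortened list the standard IMR90 difference was -2.02 and the low-cell difference -60.2, with low-cell CTCF siRNA shares of 48.2 and 15.1%. The H3K4me3 difference reversed without control replicate 1 (-0.858) and without CTCF siRNA replicate 2 (-1.78), and the cause was not tested. With a replicate block the differences were the same (-4.59, -66.1, 1.32 and 3.52), each with an exact p = 0.5, the smallest that 2 pairs allow. The labels give the replicates only a number and do not say whether same-numbered control and CTCF siRNA libraries are paired. The correlation of the log2 replicate ratios of control and CTCF siRNA libraries was 0.30 in LNCaP cells, over the 3091 sites kept in both. It was -0.01 in IMR90 cells with the standard protocol and 0.05 with the low-cell protocol. Whether the replicates share an effect that bears on the sites was not tested. With 2 libraries per group no test could pass 0.05, and a site without a peak may be bound below the threshold of the list.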

Other observations

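The 257 control sites with a peak in CTCF siRNA replicate 1 alone had other values than those kept in replicate 2 alone. Their median control fold enrichment was 21.6 in replicate 1 and 11.9 in replicate 2. The log2 ratio of replicate 2 over replicate 1, taken site by site, had a median of -0.33, against 0.32 at the sites kept in replicate 2 alone. Their median GC content was 58.7% and their median number of CpG dinucleotides 8. H3K4me3 was present in all 4 LNCaP libraries at 74 of them (28.8%) and a core at 233 (90.7%).

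The share of control sites kept in replicate 2 alone was highest on chromosome 19, at 200 of 1146 sites (17.5%, 15.4 to 19.8%), and lowest on chromosome 4, at 140 of 1627 (8.60%, 7.34 to 10.1%). The median mean control fold enrichment was 14.1 on chromosome 19 and 11.2 on chromosome 4.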
